A study of Mus musculus with 71 samples.

Results

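Opalin and 8 further genes of the central myelin sheath (Mag, Mog, Cnp, Mbp, Mobp, Cldn11, Ugt8a and Mal) were followed in mouse whole brain through sleep deprivation, time of day and strain. Every probe set annotated to 1 of these genes was taken, which gave 25 probe sets for 9 genes out of 45037 probe sets and 18193 genes measured. Myelin is the stacked membrane that oligodendrocytes wrap around axons, and it speeds conduction and feeds the axon. Opalin is a glycoprotein of the paranodal loops and the inner tongue of central myelin, and the gene is used as a marker of mature oligodendrocytes. Mag sits on the membrane that faces the axon, Mog on the outer face of the sheath, and Cnp, a cyclic nucleotide phosphodiesterase, in the cytoplasm-filled channels. Mbp and Mobp hold the compact layers together, Cldn11 forms the tight junctions between them, Ugt8a makes the glycolipid galactosylceramide, and Mal is a proteolipid of lipid-rich membrane domains.

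Male mice of 3 inbred strains (AKR/J, DBA/2J, C57BL/6J), 12 to 13 weeks old, were sleep-deprived for 6 h before being killed at ZT0, ZT6, ZT12 or ZT18 (hours after light onset), or were left in the home cage as controls and killed with them. The 3 strains, 2 conditions and 4 times made 24 groups, with no genetic change or drug in any of them. Each one-colour Affymetrix array carried whole-brain RNA pooled from 3 mice, and 23 groups held 3 arrays while AKR/J sleep-deprived at ZT18 held 2, for 35 sleep-deprived and 36 control arrays. In whole tissue, fewer cells of a type and less RNA per cell cannot be told apart.

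Values are log2 signals per probe set, and a difference of 1 is a doubling or halving. A probe set was called when its adjusted p was under 0.05 in limma's moderated test (Benjamini-Hochberg, adjusted across 45037 probe sets), and errors of differences are SE from that fit. The array medians lay between 5.65 and 5.71, and 2 replicates of any group were 0.145 to 0.239 apart (root mean square over probe sets). On the spike-in control probes 6 arrays stood apart: replicate 3 of AKR/J control at ZT0 and at ZT6, of C57BL/6J control at ZT0 and of C57BL/6J sleep-deprived at ZT0, and replicates 1 and 3 of C57BL/6J sleep-deprived at ZT6. Pituitary hormone genes varied widely between arrays, with Gh from 4.87 to 13.31 in sleep-deprived and from 4.96 to 13.44 in control arrays. The mean level of 10 neuronal markers had a median of 11.52 in sleep-deprived and 11.53 in control arrays, and that of 9 oligodendrocyte markers outside the set 8.52 and 8.58. Of these 9 oligodendrocyte markers (12 were listed), 3 were called higher and 3 lower with sleep deprivation. Among all probe sets 8.31% were called higher and 9.00% lower. Peripheral myelin markers (3 measured) stayed near the dim end in both conditions, at a median of 4.77 in sleep-deprived and 4.81 in control arrays.

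The stretches of genome around the starts of Opalin, Mag, Mog and Cnp are shown because these 4 genes were lower after sleep deprivation and the first RefSeq start of each has a match to the motif of Myrf, the transcription factor that oligodendrocytes need to make myelin. Each runs from 250 bases before the start to 50 after it, is read 5′ to 3′ along the gene, and comes from RefSeq on build GRCm38.p6. The windows are Opalin chr19:41077064-41077363 (minus strand), Mag chr7:30914814-30915113 (minus strand), Mog chr17:37023349-37023648 (minus strand) and Cnp chr11:100574689-100574988 (plus strand). Capitals mark the Myrf motif, CTGGCAC or CTGGTAC on either strand.
Opalin: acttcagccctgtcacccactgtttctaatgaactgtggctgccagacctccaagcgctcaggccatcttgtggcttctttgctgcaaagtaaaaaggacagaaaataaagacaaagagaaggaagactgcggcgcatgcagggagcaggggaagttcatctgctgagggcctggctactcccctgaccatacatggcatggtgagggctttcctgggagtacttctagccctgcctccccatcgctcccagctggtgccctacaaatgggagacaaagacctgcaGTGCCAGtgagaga
Mag: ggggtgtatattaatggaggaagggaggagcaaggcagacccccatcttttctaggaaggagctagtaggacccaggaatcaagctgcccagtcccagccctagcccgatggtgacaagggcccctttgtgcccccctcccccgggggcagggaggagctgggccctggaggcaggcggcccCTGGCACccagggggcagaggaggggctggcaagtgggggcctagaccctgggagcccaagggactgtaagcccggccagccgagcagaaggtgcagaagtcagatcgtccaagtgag
Mog: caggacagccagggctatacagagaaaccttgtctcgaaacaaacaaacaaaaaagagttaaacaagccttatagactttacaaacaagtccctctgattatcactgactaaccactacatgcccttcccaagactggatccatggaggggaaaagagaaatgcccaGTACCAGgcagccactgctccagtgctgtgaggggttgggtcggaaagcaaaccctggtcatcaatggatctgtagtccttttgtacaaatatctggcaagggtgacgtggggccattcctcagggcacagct
Cnp: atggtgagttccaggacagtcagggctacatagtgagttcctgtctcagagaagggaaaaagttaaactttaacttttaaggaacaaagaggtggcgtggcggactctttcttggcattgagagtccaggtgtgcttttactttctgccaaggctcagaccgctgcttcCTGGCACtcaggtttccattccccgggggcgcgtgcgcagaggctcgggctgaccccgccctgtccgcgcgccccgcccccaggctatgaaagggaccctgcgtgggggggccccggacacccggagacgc
Counted from the start, the motif begins at base 37 in Opalin, -68 in Mag, -83 in Mog and -81 in Cnp. Mag has further listed starts: its window 2 also holds the motif, and its window 3 (chr7:30914272-30914571) does not. Among all 32851 mouse windows of this length, 7.1% hold it. The letters are not in the windows of Mobp, Cldn11, Ugt8a and Mal, and no window of Mbp is shown or searched. The motif ACAAAG, shared by Sox factors, occurs in 18.7% of all windows; Opalin holds it 2 times, Mag and Cnp 1 time each and Mobp 6 times. The E-box CACGTG, found in 7.2% of windows, is in none of the 8 genes' windows. These matches describe the letters and were not set against binding. The printed genes were chosen for both the fall and the motif, and a link between the motif and the fall was not tested.

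Opalin was lower after sleep deprivation in every one of the 12 comparisons of strain and time. On its bright probe set (1435854_at, mean level 8.35) the mean difference was -0.59 ± 0.03, a 1.51-fold fall, with an adjusted p of 6.61e-24 by limma. Over all probe sets 17.3% were called in this comparison, 8.31% higher and 9.00% lower. The sleep-deprived arrays lay wholly below their controls in 8 of the 12 comparisons, a pattern that 0.497% of all probe sets showed in 8 or more. The dim probe set 1447487_at averaged 3.46, in the lowest 5.6% of probe sets, and its difference of -0.04 ± 0.03 did not pass (adjusted p = 0.342).

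Array by array, AKR/J mice at ZT0 had Opalin at 8.07, 8.34 and 8.20 when sleep-deprived and at 8.41, 8.44 and 8.28 in controls. At ZT6 the values were 8.15, 8.06 and 8.002 in sleep-deprived AKR/J and 8.90, 8.89 and 8.76 in AKR/J controls. The groups overlapped at ZT0 and were far apart at ZT6. At ZT12 sleep-deprived AKR/J gave 7.71, 7.73 and 7.70, against 8.60, 8.57 and 8.44 in controls, again with no overlap. At ZT18 the 2 sleep-deprived AKR/J arrays read 7.82 and 8.06, against 8.06, 8.18 and 8.05 in controls. In AKR/J the gap therefore opened at ZT6 (-0.78 ± 0.10, adjusted p = 1.39e-07 by limma) and ZT12 (-0.82 ± 0.10, 4.16e-08), and the differences at ZT0 (-0.17, 0.526) and ZT18 (-0.16, 1) did not pass. In AKR/J 0.215% of all probe sets were called at ZT0, 2.58% at ZT6, 1.71% at ZT12 and 0 at ZT18.

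In C57BL/6J the groups were also separate at ZT0, where sleep-deprived arrays read 8.29, 8.16 and 8.29 and controls 8.98, 9.06 and 8.95. At ZT6 the values were 8.45, 8.59 and 8.44 in sleep-deprived C57BL/6J and 9.10, 9.07 and 9.02 in controls. At ZT12 they were 8.26, 8.03 and 7.97 in sleep-deprived C57BL/6J and 9.07, 9.08 and 9.09 in controls. All 3 times showed no overlap. At ZT18 sleep-deprived C57BL/6J gave 8.03, 8.18 and 7.86, against 8.47, 8.36 and 8.59 in controls, which also did not overlap. The differences were -0.75 ± 0.10 at ZT0 (adjusted p = 1.89e-06 by limma), -0.57 ± 0.10 at ZT6 (0.000152), -0.99 ± 0.10 at ZT12 (4.81e-10) and -0.45 ± 0.10 at ZT18 (0.147, not called). Without the 6 arrays apart on spike-ins, ZT6 rests on 1 sleep-deprived array and the difference was -0.47 ± 0.14 (0.118), while at ZT0 it was -0.80 ± 0.12 (0.000178). At ZT0 same-numbered C57BL/6J arrays deviated together (r = 0.369, 0.228 and 0.603), and with the replicate number as a block there the difference was -0.75 ± 0.10 (3.76e-06). In C57BL/6J 0.331% of all probe sets were called at ZT0, 7.47% at ZT6, 2.14% at ZT12 and 0.00222% at ZT18.

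In DBA/2J, as in AKR/J, the groups overlapped at ZT0 and ZT18. At ZT0 its arrays read 8.25, 8.37 and 8.25 when sleep-deprived and 8.69, 8.31 and 8.31 in controls. At ZT6 they read 8.27, 8.08 and 8.01 when sleep-deprived and 9.05, 9.05 and 9.07 in controls. The overlap at ZT0 gave way to a wide gap at ZT6. At ZT12 sleep-deprived DBA/2J gave 7.81, 7.51 and 7.35, the last of these the lowest value of the 71 arrays, against 8.77, 8.61 and 8.85 in controls. At ZT18 the arrays overlapped, with 7.56, 7.90 and 7.87 in sleep-deprived DBA/2J and 7.72, 8.08 and 7.98 in controls. The differences were -0.94 ± 0.10 at ZT6 (adjusted p = 6.67e-10 by limma) and -1.19 ± 0.10 at ZT12 (6.36e-13), with -0.14 at ZT0 (0.777) and -0.15 at ZT18 (0.738) not called. In DBA/2J 0.111% of all probe sets were called at ZT0, 3.63% at ZT6, 2.94% at ZT12 and 0.00444% at ZT18.

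**Figure D1:**
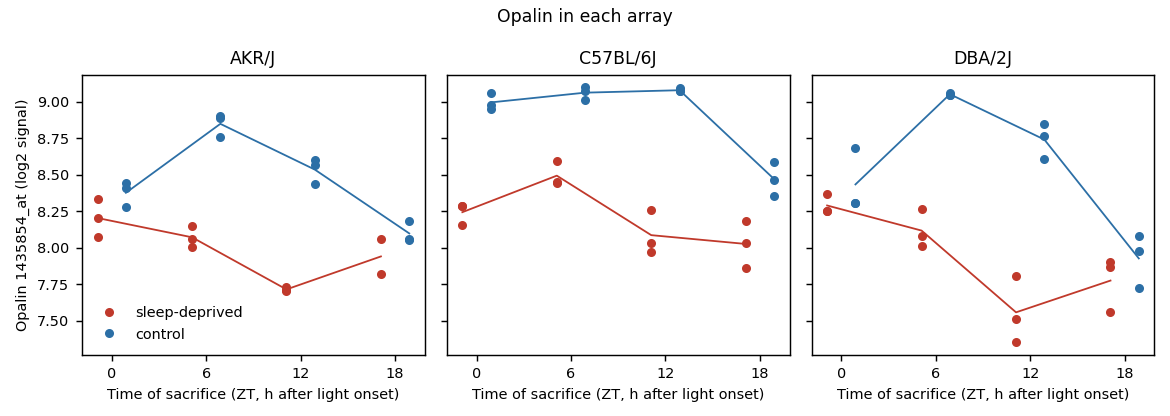
Log2 signal of Opalin probe set 1435854_at in each of the 71 arrays (points, 1 pool of 3 mice each) by time of sacrifice in hours after light onset, with sleep-deprived arrays left of controls and lines through group means. Sleep-deprived means lie below control means in all 12 comparisons, with the widest gap in DBA/2J at ZT12 (-1.19) and narrow gaps in AKR/J and DBA/2J at ZT0 and ZT18.

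Ordered by mean, the 24 groups ran over 1.52 log2 units, with a spread between arrays of one group of 0.12 (pooled SD). The lowest were DBA/2J sleep-deprived at ZT12 (7.56 ± 0.23, SD, n = 3), AKR/J sleep-deprived at ZT12 (7.71 ± 0.01, n = 3) and DBA/2J sleep-deprived at ZT18 (7.77 ± 0.19, n = 3). The highest were DBA/2J control at ZT6 (9.05 ± 0.01), C57BL/6J control at ZT6 (9.06 ± 0.04) and C57BL/6J control at ZT12 (9.08 ± 0.01, n = 3 each). Neighbours in this order overlapped in 21 of 23 cases. The exceptions were the step between AKR/J control at ZT12 and DBA/2J control at ZT12, and that between AKR/J control at ZT6 and C57BL/6J control at ZT0.

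The size of the Opalin difference depended on the time of day. Over the 3 strains it was -0.36 ± 0.06 at ZT0 (adjusted p = 4.02e-05), -0.76 ± 0.06 at ZT6 (1.08e-15), -1.001 ± 0.06 at ZT12 (2.51e-20) and -0.25 ± 0.06 at ZT18 (0.0761, not called), all by limma. At ZT12 this was a 2.00-fold fall. The F test of a difference between the 4 times passed with a range of 0.75 and an adjusted p of 1.41e-09. The differences between strains did not pass: -0.48 ± 0.05 in AKR/J, -0.69 ± 0.05 in C57BL/6J and -0.60 ± 0.05 in DBA/2J, with a range of 0.21 and an adjusted p of 0.613. At ZT0 alone, a test chosen after the values above were seen gave a range between strains of 0.61 with an unadjusted p of 4.19e-05 and an adjusted p of 0.316, so that the larger ZT0 difference of C57BL/6J was not called.

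Averaged over the 3 strains, controls had a daily course of Opalin, highest at ZT6 and lowest at ZT18. Their mean over 9 arrays was 8.60 at ZT0, 8.99 at ZT6, 8.79 at ZT12 and 8.17 at ZT18. By strain, AKR/J and DBA/2J controls were highest at ZT6 (8.85 and 9.05). C57BL/6J controls were nearly level at ZT0, ZT6 and ZT12 (9.00, 9.06 and 9.08) and lowest at ZT18 (8.47). The F test of time of day in controls passed with a range of 0.82 (adjusted p = 1.94e-16). Sleep-deprived mice averaged 8.25 at ZT0, 8.23 at ZT6, 7.79 at ZT12 and 7.91 at ZT18 (8 arrays at ZT18), with a range of 0.46 that also passed (4.24e-09). The highest time mean of sleep-deprived mice, 8.25 at ZT0, was below 3 of the 4 control means. Over the 3 strains the lowest mean fell at ZT12 in sleep-deprived mice and at ZT18 in controls. Sleep-deprived C57BL/6J differed from this average, with 8.24 at ZT0, 8.49 at ZT6, 8.09 at ZT12 and 8.03 at ZT18.

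Among all 25 probe sets 10 were called for sleep deprivation over the 12 comparisons, 5 higher and 5 lower, or 40% against 17.3% of all probe sets. Without the 6 spike-in arrays 13 were called. On the brightest probe set of each gene, 5 of 9 genes were called: Opalin, Mag, Mog and Cnp lower, and Ugt8a higher. The median difference of the 25 was 0.01, against -0.002 over all probe sets tested. Mbp and Mobp have the most probe sets and so weigh most in that median. The called probe sets did not share a direction. The lower ones were of Opalin, Mag, Mog and Cnp, and the higher ones were 1 probe set of Mbp, 2 of Mobp and 2 of Ugt8a.

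Mag, which binds axonal glycans, fell by 0.10 on the log2 scale (-0.10 ± 0.02, adjusted p = 6.65e-06 by limma) and was lower in 10 of 12 comparisons. Its arrays did not overlap in 7 of these, which 0.990% of all probe sets matched with 7 or more. In 1 comparison, AKR/J at ZT18, the sleep-deprived arrays (9.612 and 9.596) lay wholly above the controls (9.559, 9.535 and 9.454). At ZT6 the lowest, median and highest of 9 arrays were 9.58, 9.69 and 9.78 in sleep-deprived mice and 9.78, 9.88 and 10.17 in controls. The 2 sets of arrays met at a single level there. At ZT12 they were 9.52, 9.68 and 9.78 in sleep-deprived mice and 9.71, 9.82 and 9.89 in controls. The differences were -0.21 ± 0.03 at ZT6 (6.91e-06) and -0.15 ± 0.03 at ZT12 (0.00147), against -0.02 at ZT0 (0.867) and -0.03 at ZT18 (0.993), neither called. The F test between times passed (range 0.19, adjusted p = 0.027), but it did not without the 6 arrays apart on spike-ins (0.133), without C57BL/6J control ZT6 replicate 2 (0.0518) or without DBA/2J sleep-deprived ZT6 replicate 2 (0.0568).

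Mog, the surface antigen of the sheath, fell by 0.12 (-0.12 ± 0.03, adjusted p = 0.000287 by limma) and was lower in 11 of 12 comparisons, and wholly separate in 3, which 10.7% of all probe sets matched with 3 or more. At ZT6 the lowest, median and highest array were 7.92, 8.04 and 8.395 in sleep-deprived mice and 8.04, 8.24 and 8.73 in controls. At ZT12 they were 7.85, 8.24 and 8.53 in sleep-deprived mice and 8.12, 8.39 and 8.55 in controls. Over the 3 strains together the ranges overlapped widely. Mog was called at ZT6 (-0.18 ± 0.05, 0.009) and ZT12 (-0.17 ± 0.05, 0.02). The ZT6 call was lost without C57BL/6J control ZT6 replicate 2 (0.0512), and the ZT12 call without replicate 3 of AKR/J, C57BL/6J or DBA/2J sleep-deprived at ZT12 (0.0826, 0.05 and 0.072) or with only the compared groups fitted (0.0627).

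Cnp fell on 2 of its 3 probe sets, by 0.07 on 1437341_x_at (-0.07 ± 0.02, adjusted p = 0.00281 by limma) and by 0.08 on 1449296_a_at (-0.08 ± 0.02, 0.00243), while 1418980_a_at at -0.08 ± 0.03 did not pass (0.0878). On 1449296_a_at the control mean was 9.52 at ZT0, 9.73 at ZT6, 9.72 at ZT12 and 9.53 at ZT18. The sleep-deprived mean was 9.56, 9.54, 9.54 and 9.54 at these times. The differences at ZT6 (-0.19 ± 0.04, 0.00078) and ZT12 (-0.19 ± 0.04, 0.00114) were called, and the F test between times passed (range 0.23, 0.0133). Names ending in _x_at or _s_at mark probe sets whose probes may also bind other transcripts.

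Mbp, the protein that zips the cytoplasmic faces of myelin together, rose on 1 of 8 probe sets. That set, 1425264_s_at, was higher by 0.15 ± 0.02 (adjusted p = 3.72e-07 by limma) and in 10 of 12 comparisons, with separate arrays in 6, which 2.01% of all probe sets matched. At ZT12 the lowest, median and highest array were 8.63, 8.73 and 8.87 in sleep-deprived mice and 8.24, 8.46 and 8.59 in controls, with no overlap across the 3 strains. The control mean was 8.61 at ZT0, 8.49 at ZT6, 8.45 at ZT12 and 8.70 at ZT18, lowest where the control mean of Opalin was high. The sleep-deprived mean stayed between 8.67 and 8.73 at all 4 times. The difference was called at ZT6 (0.22 ± 0.04, 0.000176) and ZT12 (0.28 ± 0.04, 2.23e-06), and the F test between times passed (range 0.25, 0.0196). The other 7 Mbp probe sets had differences from -0.01 to 0.05 and none was called. The 6 brightest of them, at mean levels from 12.77 to 13.82 (percentile 99.7 of all probe sets or higher), varied over the 24 group means by only 0.11 to 0.27.

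Mobp and Ugt8a were higher on some probe sets. Mobp 1436263_at rose by 0.09 ± 0.02 (adjusted p = 0.00189 by limma) and 1441308_at by 0.11 ± 0.03 (0.00875). The set 1441308_at was dim, at a mean level of 5.24 (percentile 44.3 of all probe sets). The 3 brighter Mobp sets at 0.03, 0.05 and 0.07 did not pass (0.365, 0.278 and 0.176). Both Ugt8a probe sets passed, at 0.06 ± 0.02 (1419063_at, 0.0367) and 0.08 ± 0.03 (1419064_a_at, 0.0319). These calls were marginal: leaving out 1 array ended the first for 17 of the 71 arrays and the second for 7, with adjusted p up to 0.0605 and 0.0554. Cldn11 at -0.04 ± 0.03 (0.485) and Mal at 0.01 ± 0.02 (0.806) and 0.02 ± 0.02 (0.711) were not called.

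**Figure D2:**
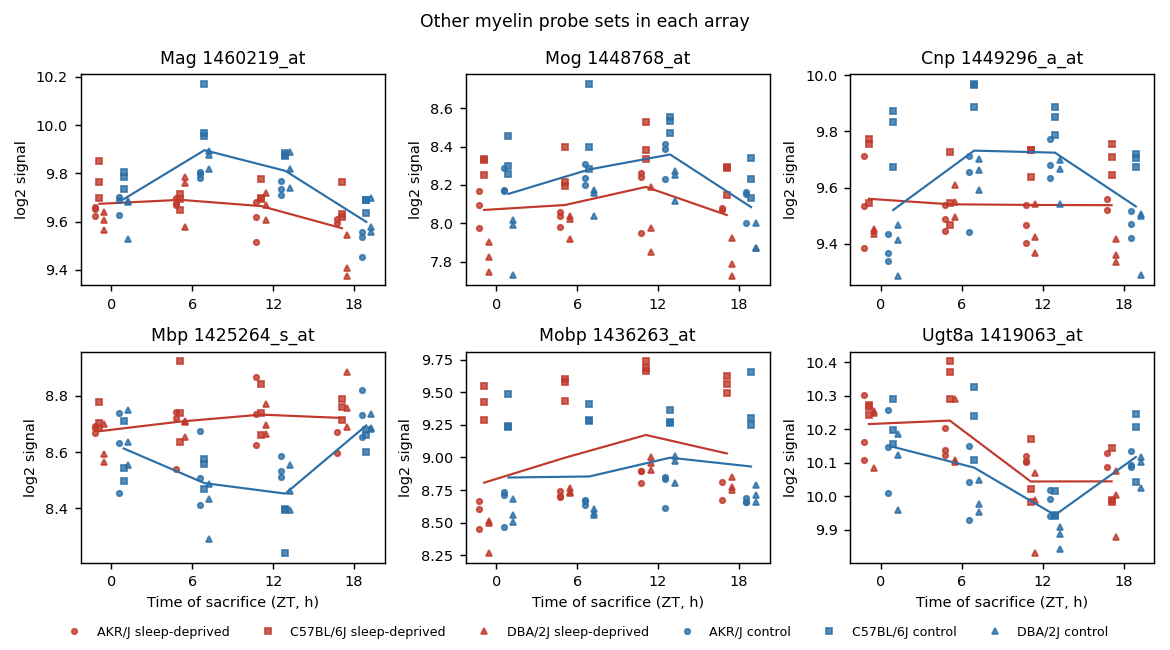
Log2 signal in each array for Mag, Mog, Cnp, Mbp, Mobp and Ugt8a probe sets by time of sacrifice, with sleep-deprived arrays left of controls, symbols for strains and lines through the mean of the 3 strains. Control lines of Mag, Mog and Cnp lie above the sleep-deprived lines at ZT6 and ZT12, and the Mbp 1425264_s_at line of controls lies below at those times (8.45 against 8.73 in sleep-deprived mice at ZT12).

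By time, 1 of the 25 probe sets was called at ZT0, 7 at ZT6, 7 at ZT12 and 0 at ZT18. Over all probe sets 1.71% were called at ZT0, 10.4% at ZT6, 9.75% at ZT12 and 0.0777% at ZT18. At ZT6 5.13% were higher and 5.29% lower, and at ZT12 4.71% were higher and 5.04% lower. At ZT6 the 4 lower sets were Opalin 1435854_at, Mag, Mog and Cnp 1449296_a_at, and the 3 higher were Mbp 1425264_s_at, Mobp 1436263_at and Ugt8a 1419063_at. At ZT12 the 5 lower sets added Cnp 1437341_x_at, and the 2 higher were Mbp 1425264_s_at and Mobp 1436263_at. The Mobp call at ZT6 (0.14 ± 0.05, adjusted p = 0.0327) was lost without the 6 spike-in arrays (0.11 ± 0.05, 0.257) and the Ugt8a call there (0.14 ± 0.04, 0.0156) too (0.14 ± 0.05, 0.0625). The F test between times called 4 of 25, against 1.40% of all probe sets: Opalin, Mag, Cnp 1449296_a_at and Mbp 1425264_s_at.

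**Figure D3:**
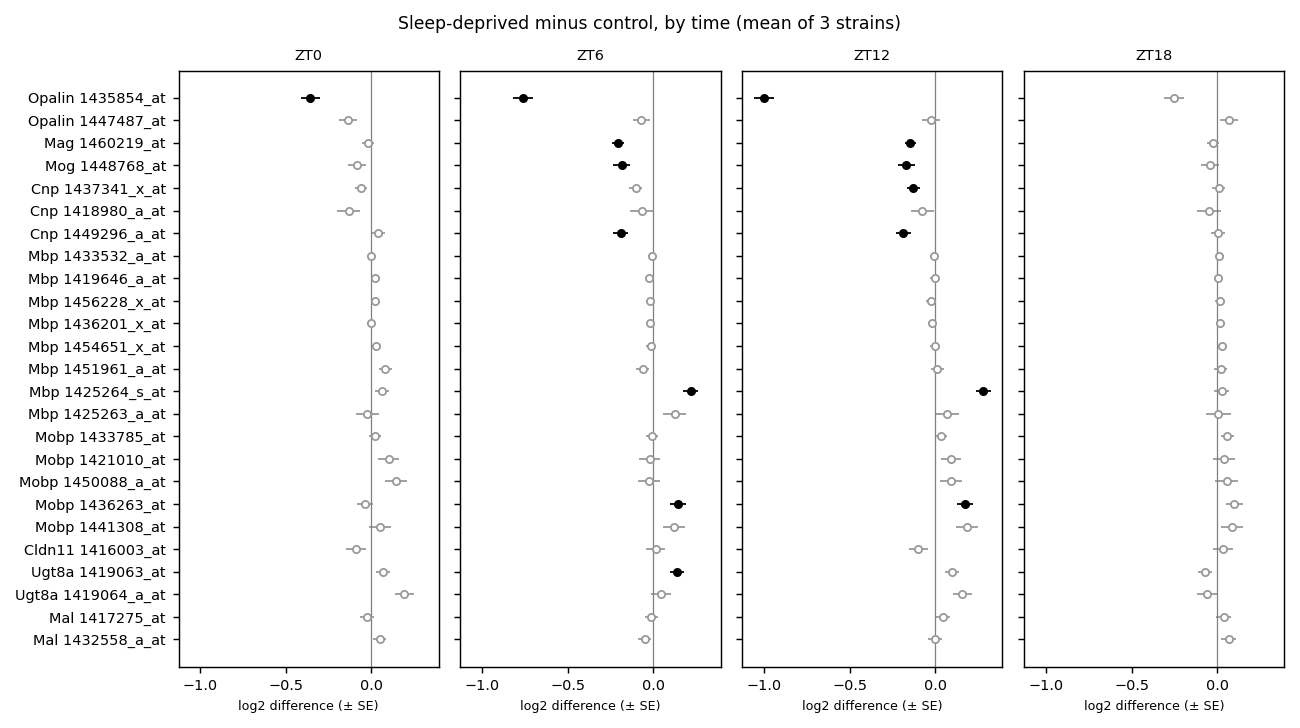
Sleep-deprived minus control log2 difference (± SE, mean of 3 strains) for all 25 probe sets at each time of sacrifice, with filled points for adjusted p under 0.05. Opalin 1435854_at stands left of all other sets at every time, at -1.001 at ZT12, and 7 sets are filled at ZT6 and at ZT12.

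Within strains 3 of 25 probe sets were called in AKR/J, 5 in C57BL/6J and 3 in DBA/2J, where 5.85%, 6.45% and 6.90% of all probe sets were. Opalin was called in each strain. Mag was called in C57BL/6J (-0.13 ± 0.03, adjusted p = 0.00251 by limma) and DBA/2J (-0.13 ± 0.03, 0.00247) and read -0.05 ± 0.03 in AKR/J (0.432). Mbp 1425264_s_at was called in C57BL/6J (0.22 ± 0.04, 2.85e-05) and DBA/2J (0.14 ± 0.04, 0.00782) and read 0.08 ± 0.04 in AKR/J (0.268). Mobp 1436263_at was called in C57BL/6J alone (0.22 ± 0.04, 0.000129, against 0.04 in AKR/J and 0.03 in DBA/2J). Of the F tests between strains 0 of 25 passed, against 0.0222% of all probe sets, so none of these differences in call was shown to be a difference between strains. Cnp 1449296_a_at was called in C57BL/6J (-0.15 ± 0.04, 0.00437) and not without the 6 spike-in arrays (-0.11 ± 0.04, 0.0824). Mog (-0.14 ± 0.05, 0.0418) and Ugt8a 1419064_a_at (0.17 ± 0.05, 0.0268) were called in AKR/J. Leaving out single arrays raised the adjusted p of Mog to as much as 0.113 (0.119 without the 6 spike-in arrays) and that of Ugt8a to as much as 0.0829.

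In single comparisons of strain and time the count was highest in C57BL/6J at ZT6, with 8 of 25 called (7.47% of all probe sets). They included 3 bright Mobp sets that were lower there, 1433785_at (-0.20 ± 0.06, adjusted p = 0.0326 by limma), 1421010_at (-0.35 ± 0.10, 0.0285) and 1450088_a_at (-0.38 ± 0.11, 0.0288). On 1421010_at the sleep-deprived arrays read 11.29, 11.74 and 11.29 and the controls 11.79, 11.82 and 11.75. The 2 low arrays are replicates 1 and 3, which stood apart on the spike-ins. Without the 6 such arrays the difference was -0.05 ± 0.09 (0.887) and none of the 8 was called.

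Time of day in controls called 10 of 25 probe sets, against 11.7% of all. Mag ranged over 0.30 (adjusted p = 1.96e-09 by limma), Mog over 0.27 (0.000145) and Cnp over 0.22 on 1437341_x_at (2.02e-05) and 0.21 on 1449296_a_at (1.09e-05). Control means of Mag were 9.69 at ZT0, 9.90 at ZT6, 9.81 at ZT12 and 9.60 at ZT18. Mog ran at 8.15, 8.28, 8.36 and 8.08 at these times. Like Opalin, both were lowest at ZT18. Mbp 1425264_s_at (0.24, 4.55e-05) and Ugt8a 1419063_at (0.20, 0.000788) were both lowest at ZT12, with Ugt8a at 10.15, 10.09, 9.94 and 10.12. Ugt8a 1419064_a_at also passed (0.24, 0.0129). Both Mobp calls, 1436263_at (0.15, 0.0441) and 1441308_at (0.23, 0.0372), were lost when single arrays were left out (adjusted p up to 0.105 and 0.148). In sleep-deprived mice 4 of 25 passed, against 1.42% of all: Opalin, Mobp 1436263_at (0.37, 1.86e-06), Mobp 1441308_at (0.29, 0.0261) and Ugt8a 1419063_at (0.18, 0.000855). Mobp 1441308_at did not pass there without the 6 spike-in arrays (0.0847).

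C57BL/6J controls had more signal than both other strains on most of these probe sets. Over the 4 times, 21 of 25 were higher in C57BL/6J than in AKR/J and 0 lower, while 22.9% of all probe sets were called, 9.74% higher and 13.1% lower. DBA/2J was lower than C57BL/6J on 22 of 25 and higher on 0, while 23.2% of all were called, 13.6% higher and 9.55% lower. DBA/2J was lower than AKR/J on 4 and higher on 0 (17.3% of all called, 9.01% higher and 8.30% lower). The 3 contrasts share control arrays. The median difference of the 25 was 0.16 for C57BL/6J minus AKR/J, against -0.02 over all probe sets. It was -0.17 for DBA/2J minus C57BL/6J, against 0.02 over all.

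Mobp 1436263_at differed most, with the lowest, median and highest of 12 control arrays at 9.23, 9.28 and 9.65 in C57BL/6J and 8.47, 8.67 and 8.85 in AKR/J. DBA/2J controls read 8.50, 8.67 and 9.01. The C57BL/6J arrays lay wholly above those of the other strains, by 0.65 ± 0.04 over AKR/J (adjusted p = 1.1e-20 by limma), and DBA/2J lay 0.63 ± 0.04 below (-0.63, 3.72e-20). For Mal 1417275_at, C57BL/6J controls ran from 10.89 to 11.19, DBA/2J controls from 10.34 to 10.62 and AKR/J controls from 10.52 to 10.85. C57BL/6J was separate from both, and DBA/2J was below AKR/J (-0.15 ± 0.04, 0.000702). Opalin was higher in C57BL/6J than in AKR/J by 0.44 ± 0.05 (9.07e-11), lower in DBA/2J than in C57BL/6J (-0.36 ± 0.05, 1.66e-08), and not called between DBA/2J and AKR/J (0.07 ± 0.05, 0.368). Mbp 1425264_s_at, the set that rose with sleep deprivation, was not called between any 2 strains. DBA/2J was also lower than AKR/J for Mog (-0.19 ± 0.04, 0.000855), Cnp 1437341_x_at (-0.09 ± 0.03, 0.0272) and Mal 1432558_a_at (-0.11 ± 0.04, 0.0211). The last 2 calls were lost without single arrays (adjusted p up to 0.0706 and 0.0606). A difference between strains on a probe set can include a difference in the sequence under the probes, which was not tested.

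**Figure D4:**
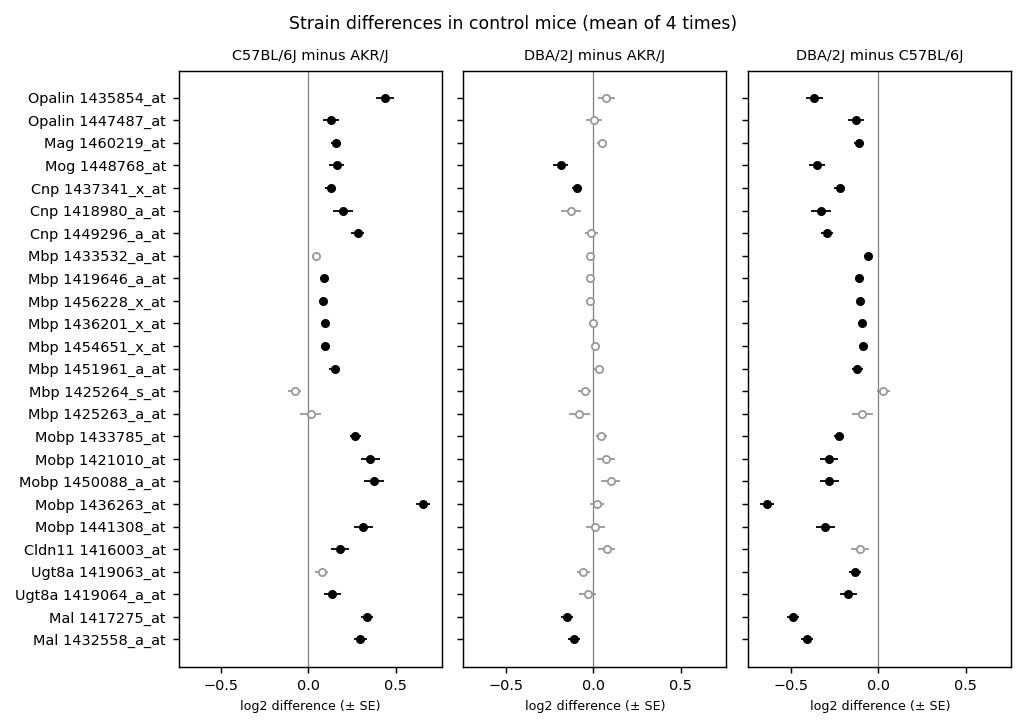
Log2 differences between strains in control arrays (± SE, mean of 4 times) for all 25 probe sets, with filled points for adjusted p under 0.05. Of the 25, 21 are filled on the right for C57BL/6J minus AKR/J and 22 on the left for DBA/2J minus C57BL/6J, led by Mobp 1436263_at at 0.65 and -0.63.

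Over the 24 group means the brightest set of Mag correlated with Opalin at r = 0.78, that of Cnp at 0.71, that of Mog at 0.59 and those of the other 5 genes at 0.03 to 0.24. Mbp 1425264_s_at correlated at -0.81. After group means were taken out, the correlations over the 71 arrays were 0.25 for Mag, 0.23 for Mog, 0.07 for Cnp and -0.27 for Mbp 1425264_s_at. These values describe groups that share strain, time and condition. Of all probe sets 0.49% were more like Opalin than Mag was. Within groups the closest pairs of genes were Cldn11 and Mal (r = 0.686), Mog and Mal (0.681) and Cnp and Mal (0.658). These within-group correlations include the 6 arrays apart on spike-ins, whose part in them was not tested. Among those arrays, replicate 3 of C57BL/6J control at ZT0 read 9.98 for Cldn11, against 9.51 and 9.72 in replicates 1 and 2. Mal 1417275_at read 11.07 there against 10.93 and 10.97, while Mal 1432558_a_at read 9.85 against 10.03 and 9.97.

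The 8 other genes most like Opalin over the 24 group means, each on 1 probe set, were Litaf (r = 0.94), a protein of late endosomes, Pllp (0.92), the myelin proteolipid plasmolipin, Aspa (0.92), the oligodendrocyte enzyme that splits N-acetylaspartate, Churc1 (0.92), the RNA-binding proteins Hnrnpr (0.91) and Hnrnpdl (0.89), Mcts2 (0.90) and Pigp (0.89), which acts in the making of membrane anchors. The most opposite were Baiap2 (-0.94), a scaffold of the actin skeleton, the guanine exchange factor Trio (-0.94), the repressor Bcl6 (-0.93), the amino acid transporter Slc38a2 (-0.92) and the chromatin protein Dpf2 (-0.92). The mean of the other 8 genes was matched best by Sptbn1 (0.96), a spectrin, and by Ttll7 (0.96), Ppm1m (0.96), Map3k7 (0.95) and Gm5148 (0.95). Rank correlation shared 5 of the 8 genes most like Opalin.

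The wider oligodendrocyte genes also moved both ways. Of 36 other mature oligodendrocyte and myelin genes measured, 5 rose and 12 fell with sleep deprivation, where 8.31% of all probe sets were higher and 9.00% lower. Their median difference was -0.02, against -0.002 over all probe sets. The chaperone Cryab rose by 0.36 ± 0.02 (adjusted p = 4.25e-20 by limma), and the actin-binding protein Anln rose by 0.25 ± 0.02 (5.24e-15). Aspa fell by 0.31 (-0.31 ± 0.02, 5.28e-17) and Pllp by 0.26 (-0.26 ± 0.02, 3.58e-16). In C57BL/6J controls 21 of the 36 were higher than in AKR/J and 1 lower, where 9.74% of all probe sets were higher and 13.1% lower.

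In the smaller lists below the counts called, 3 of 15, 4 of 18, 3 of 8 and 2 of 13, stand beside 17.3% of all probe sets, and those of 3 of 15, 4 of 18 and 2 of 13 lie near that share. Of 15 lineage transcription factors 2 rose and 1 fell. Olig2, which sets the lineage, rose by 0.16 ± 0.03 (adjusted p = 9.12e-06 by limma) and Myrf by 0.06 ± 0.02 (0.00232), while the Notch target Hes5 fell by 0.25 (-0.25 ± 0.03, 4.51e-08), and Id2 at -0.05 was not called (0.0622). Of 18 myelin lipid enzymes 0 rose and 4 fell: Sptlc2 of the first step of sphingolipid synthesis (-0.21 ± 0.02, 3.41e-10), Kdsr of its second step (-0.07, 0.00122), the sulfatide-degrading Arsa (-0.08, 0.00155) and the elongase Elovl7 (-0.10, 0.00409). Of 8 precursor markers, Gpr17, a receptor of cells about to mature, rose by 0.20 ± 0.02 (4.9e-13), Lhfpl3 (-0.10, 0.00183) and the growth factor receptor Pdgfra (-0.07, 0.00416) fell, and Vcan at 0.02 was not called (0.679). Of 13 node and paranode genes the adhesion protein Nfasc rose by 0.12 ± 0.02 (5.29e-07) and Adam22 fell (-0.08, 0.0368). Sptbn4 at 0.05 (0.0804) and Scn8a at -0.08 (0.0953) were not called.

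**Figure D5:**
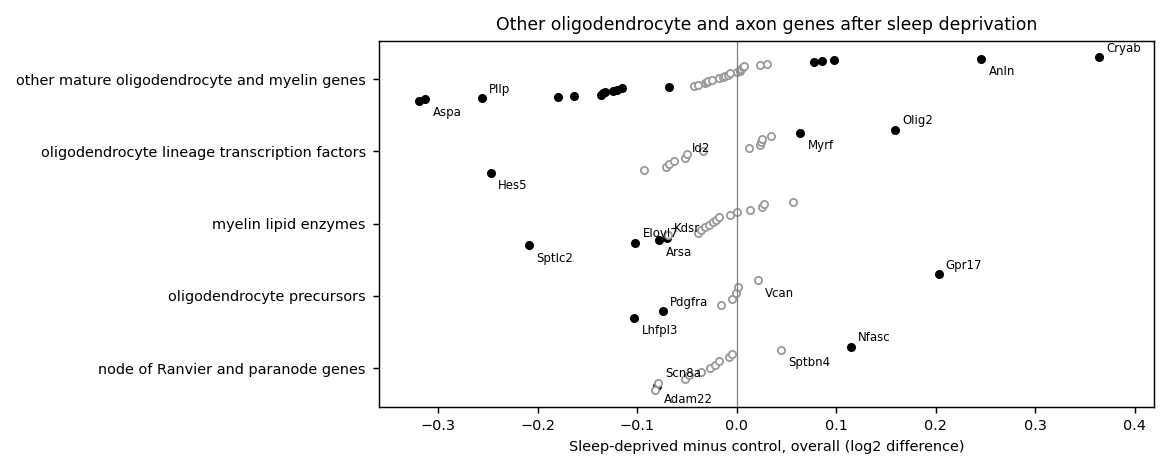
Sleep-deprived minus control log2 difference over the 12 comparisons for each gene of 5 lists outside the set (1 point per gene, filled for adjusted p under 0.05; up to 4 genes with the smallest p are named per list). The mature oligodendrocyte genes spread from Tmem125 at -0.32 to Cryab at 0.36, with 12 filled points on the left and 5 on the right.

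Pituitary markers moved beside these results without being called: their mean level had a median of 7.91 in sleep-deprived and 8.45 in control arrays, and 0 of 6 passed. With that level as a covariate the overall difference of Opalin was -0.59 and the same number of the 25 sets, 10, was called. Of the markers of other cells 1 of 10 for astrocytes, 2 of 10 for neurons, 3 of 9 for microglia and 4 of 8 for endothelial cells were called, where 17.3% of all probe sets were, and their part in the result was not tested.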

How the data were processed

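Total RNA of whole brain was hybridised to one-colour Affymetrix arrays, 1 array per pool of 3 mice. The authors deposited log2 values per probe set, and the submitters' processing notes name RMA. Its version, settings and probe mapping were not given in the sources used here. No detection calls or counts underlie the values, and the number of arrays limits the precision. The values ran from 2.69 to 14.35.

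Of 45101 probe sets 64 control sets were left out and 45037 tested. By the platform annotation 34945 had a single gene symbol, 932 more than 1 and 9160 none, and 34741 were matched by Entrez ID to RefSeq genes of GRCm38.p6. The names are from there. RefSeq start windows of 8 of the 9 genes were read on that build, and for a gene with several starts the first listed was used.

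With limma 3.58.1 in R 4.3.3 a model with 1 mean for each of 24 groups was fitted over the 71 arrays, leaving 47 residual degrees of freedom. All tests are two-sided. The overall effect is the mean of 12 differences within strain and time, and F tests compared strains, times and time courses. The arrays of any 1 group hold different mice, so p-values measure the spread between pools. A gene is summarised on its probe set of highest mean, and all its probe sets are given. The 8 genes most like Opalin and the 5 most opposite were chosen by Pearson correlation of group means, and up to 4 genes of each list by smallest p. Of 156 listed genes 147 were measured. The genes and lists were chosen with earlier results of these data known.

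Same-numbered arrays of sleep-deprived and control groups were checked for pairing: over 35 pairs the correlation of their deviations had a median of 0.021 (range -0.275 to 0.603), and 6 exceeded 0.1. In 1 comparison, C57BL/6J at ZT0, all 3 pairs did (0.369, 0.228 and 0.603), and a fit with the replicate number as a block within its 6 arrays was added after seeing the data. Elsewhere replicate numbers were not taken as pairs. The fit was tested on simulated data. Alternatives were quantile normalization, centring of array medians, bright probe sets alone (above the median), eBayes with trend and robust options, weighted arrays, the replicate number as a block, a spike-in block, leaving out the spike-in arrays, a pituitary covariate, only the compared groups, the mean of a gene's probe sets and each array left out.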

Additional observations from a re-analysis of the deposited data

Results flagged for a closer look

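For 4 probe sets the effect of sleep deprivation differed between times of sacrifice, by the F test of the 4 time effects with limma. Opalin 1435854_at had an adjusted p of 1.41e-09, with differences of -0.36, -0.76, -1.001 and -0.25 log2 at ZT0, ZT6, ZT12 and ZT18. Cnp 1449296_a_at had an adjusted p of 0.0133, with 0.04, -0.19, -0.19 and 0.00 at these times. Mbp 1425264_s_at had an adjusted p of 0.0196, with 0.06, 0.22, 0.28 and 0.03. Mag 1460219_at had an adjusted p of 0.027, with -0.02, -0.21, -0.15 and -0.03, and was not called without the 6 arrays apart on spike-ins (0.133).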

How the results depend on the processing

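No result changed direction under any alternative. The replicate block moved no call of the summary results: Opalin fell by 0.59 overall with the block (-0.59) and 10 probe sets were called, as without it. A block within C57BL/6J at ZT0 alone kept 1 of the 25 called there, with 174 of all probe sets called against 149 without it. Opalin was called in 7 of 12 comparisons of strain and time, in 6 without the spike-in arrays or with only the compared groups fitted, and in 8 with array weights. Probe sets called over the 12 comparisons numbered 9 with bright probe sets alone and 13 with the spike-in block.

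Of the 25 probe sets, those called in DBA/2J numbered 3, and 5 with quantile normalization, array weights, the spike-in block, the pituitary covariate or the spike-in arrays left out. At ZT0 the 1 called became 2 with array medians centred, bright probe sets alone (above the median), eBayes with trend and robust options or array weights. At ZT18 the 0 called (35 of all probe sets passed) became 1, Opalin, with bright probe sets alone (-0.252, adjusted p = 0.0382), the eBayes options (-0.252, 0.0399), array weights (-0.25, 0.0255) or the spike-in block (-0.252, 0.0495). Time of day in sleep-deprived mice called 4, and 12 with array weights. With the mean of a gene's probe sets, genes called numbered 5 in AKR/J, 4 in C57BL/6J and 4 for time of day in sleep-deprived mice, each against 2 on the brightest set. Over the 12 comparisons that mean also called Mbp (0.03 ± 0.01, adjusted p = 0.0356 by limma) and Mobp (0.07 ± 0.02, 0.00196) as higher. Opalin read -0.32 ± 0.02 on that mean, which takes in its dim probe set. Rank correlation shared 5 of the 8 genes most like Opalin. The cause of these changes was not tested.

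Leaving out 1 array at a time gave 1 to 4 called in AKR/J, 3 to 5 in DBA/2J, 1 to 2 at ZT0, 0 to 1 at ZT18 and 3 to 7 for time of day in sleep-deprived mice, and Opalin at ZT18 ran from -0.293 to -0.211 (adjusted p 0.0254 to 0.519). The number of arrays limits single comparisons of strain and time most. In C57BL/6J at ZT18 Opalin at -0.45 ± 0.10 was not called (unadjusted p = 3.27e-05, adjusted p = 0.147 by limma). There 0.00222% of all probe sets were called, and the adjusted p depends on how many other probe sets have small p-values.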
